A study of Mus musculus with 6 samples.

Results

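Genes of blood clotting and clot dissolution, 9 of the 19935 genes tested, were followed in mouse peritoneal macrophages exposed to a ligand of Toll-like receptor 3 or of Toll-like receptor 2. They were F3, F7, F10, F5 and F13a1 of the coagulation cascade, Plau, Plaur and Serpinb2 of the plasminogen activator system, and the matrix protein gene Thbs1. A gene was taken by its symbol in the platform annotation, and each of the 9 genes had 1 probe that carried no other symbol. Poly I:C moved all 9 genes, with 4 higher and 5 lower, where 30.4% of all genes passed. PAM moved 6 of them, with 3 higher and 3 lower, where 25% of all genes passed; 1 of the 3 lower calls, F5, was lost in every fit without 1 array. The changes with PAM included a 24.9-fold increase of Serpinb2.

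The cells were macrophages from the abdominal cavity of C57BL/6 mice, kept in serum-containing medium. The 6 arrays fell into 3 groups of 2: cells given poly I:C, a man-made double-stranded RNA, at 2 ug/mL for 24 h; cells given PAM, a lipopeptide, at 1 ug/mL for 24 h; and untreated control cells. The labels do not say how long the controls were cultured, how the macrophages were obtained or from how many mice, and they spell the lipopeptide differently in its 2 samples. Nothing says that the 2 samples of a group were separate cultures or animals, so the p-values reflect how far these samples scatter, and that scatter may be technical.

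Clotting starts when tissue factor, the product of F3, meets factor VIIa on a cell surface. The complex activates factor X, which with factor V as cofactor turns prothrombin into thrombin, and thrombin makes fibrin that factor XIII then cross-links. Fibrin is dissolved by plasmin, which the urokinase encoded by Plau releases from plasminogen at its receptor on the cell, encoded by Plaur; Serpinb2 encodes plasminogen activator inhibitor 2, an inhibitor of urokinase. Macrophages are known to make tissue factor, several clotting factors, the factor XIII A subunit and the urokinase system, and inflammatory signals are known to alter them.

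RefSeq promoters on build GRCm38.p6, covering 250 bases before and 50 bases after a transcription start, were matched for 7 of the 9 genes. Shown are F3 and Plaur, which were both lower with poly I:C and did not pass with PAM, and F10 and Serpinb2, the 2 genes with the largest increases. Both strands were searched for TGANTCA (the AP-1 motif), TATAAA (the TATA box), TGACGTCA (the cAMP response element), the interferon-stimulated response element and the NF-kB consensus, and matches stand in capitals.
F3, chr3:121723287-121723586, plus strand: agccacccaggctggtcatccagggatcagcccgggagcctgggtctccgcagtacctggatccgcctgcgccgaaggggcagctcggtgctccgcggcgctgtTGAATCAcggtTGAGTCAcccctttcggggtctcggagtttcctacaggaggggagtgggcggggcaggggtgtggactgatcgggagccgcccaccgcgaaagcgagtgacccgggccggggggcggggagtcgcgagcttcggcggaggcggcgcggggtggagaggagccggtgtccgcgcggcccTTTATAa
Plaur, chr7:24462233-24462532, plus strand: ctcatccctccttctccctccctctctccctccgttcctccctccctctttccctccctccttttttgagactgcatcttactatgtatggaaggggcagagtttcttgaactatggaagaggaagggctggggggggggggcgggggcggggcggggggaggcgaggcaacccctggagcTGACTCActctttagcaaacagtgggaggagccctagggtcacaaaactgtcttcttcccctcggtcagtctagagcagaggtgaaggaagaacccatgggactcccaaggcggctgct
F10, chr8:13037058-13037357, plus strand: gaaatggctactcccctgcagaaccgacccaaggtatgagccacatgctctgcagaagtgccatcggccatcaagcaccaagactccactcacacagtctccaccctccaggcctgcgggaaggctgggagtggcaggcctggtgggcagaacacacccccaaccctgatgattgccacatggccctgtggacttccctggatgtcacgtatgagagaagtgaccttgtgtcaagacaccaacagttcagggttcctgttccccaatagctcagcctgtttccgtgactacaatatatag
Serpinb2, chr1:107511173-107511472, plus strand: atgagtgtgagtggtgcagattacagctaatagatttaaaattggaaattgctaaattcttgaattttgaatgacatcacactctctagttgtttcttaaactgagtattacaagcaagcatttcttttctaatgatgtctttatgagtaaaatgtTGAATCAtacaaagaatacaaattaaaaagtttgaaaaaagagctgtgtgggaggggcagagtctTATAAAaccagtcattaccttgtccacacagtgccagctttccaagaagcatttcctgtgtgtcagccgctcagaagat

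The AP-1 motif was in the window of 3 of the 7 genes, with 2 matches in F3 that begin 146 and 135 bases before the start, 1 in Plaur at 69 bases and 1 in Serpinb2 at 94 bases. Of 32817 mouse promoters listed, 7.81% held this motif. That share counts promoters and the 3 of 7 counts genes, and F13a1 and Serpinb2 each had 2 windows searched. Serpinb2 had 2 listed starts, and the window shown is that of the first; from the second start its AP-1 motif lay 181 bases upstream. A TATA box lay 29 bases before the first Serpinb2 start and 116 bases before the second, and F3 had its letters on the opposite strand after the start; 13.6% of promoters held TATAAA. No window of the 7 genes held an exact match to the cAMP element, the interferon-stimulated element or the NF-kB consensus. Such matches were in 1.79%, 0.171% and 8.46% of promoters. Variant sites that depart from the searched pattern were not looked for, so the windows are not shown to lack sites for these factors. Letters in a window are a description and were not tested for use by any factor.

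The authors' log2 values had been centred, probe by probe, on the median of the 6 arrays, so 0 is the middle of a gene's own arrays and genes cannot be ranked by level. Differences are on the log2 scale and are given ± SE, with 2 arrays in each group, and p-values from limma were adjusted over all genes by the Benjamini-Hochberg method. A gene passed at an adjusted p under 0.05. The number steps in the deposited values still gave a class, open to error, for probes with each of their 6 uncentred values at 8 or more. Of the 9 genes 6 were in it (Plau, Plaur, F7, F10, Serpinb2 and Thbs1). So were 27.7% of all probes, 94.2% of ribosomal protein probes and 1.45% of olfactory receptor probes. F3, F5 and F13a1 had at least 1 array below 8. Of 11 macrophage marker probes 8 met this mark, and the other 3 were Gata6, Icam2 and Timd4. None of 8 platelet and megakaryocyte, 10 endothelial, 7 mast cell, 5 eosinophil or 8 B cell marker probes did, while 1 of 11 neutrophil, 1 of 9 hepatocyte, 1 of 6 T and NK cell and 5 of 12 mesothelial and fibroblast marker probes did.

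With poly I:C against control, 12.1% of all genes were higher and 18.2% lower, 30.4% in all, and all 9 clotting and fibrinolysis genes passed. The median size of their differences, sign set aside, was 0.73, against 0.12 over all genes tested. With PAM against control 11% of all genes were higher and 14% lower, 25% in all, and 6 of the 9 genes passed, with a median size of 0.95 against 0.11 over all genes. The 9 genes were chosen with earlier results of these data known, so these shares describe them and do not test them. Among them 3 rose with both ligands (F10, Serpinb2 and Thbs1; 4.99% of all genes did) and 3 fell with both (F5, F13a1 and Plau; 8.47% of all genes), although the PAM call of F5 was lost in all 6 fits without 1 array (adjusted p from 0.0564 to 0.219). F7 rose and F3 and Plaur fell with poly I:C without passing with PAM. The 2 comparisons share their control arrays. None of the 9 genes passed in opposite directions by limma. Among all genes, 1.35% were higher with poly I:C and lower with PAM, and 1.88% showed the reverse.

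**Figure D1:**
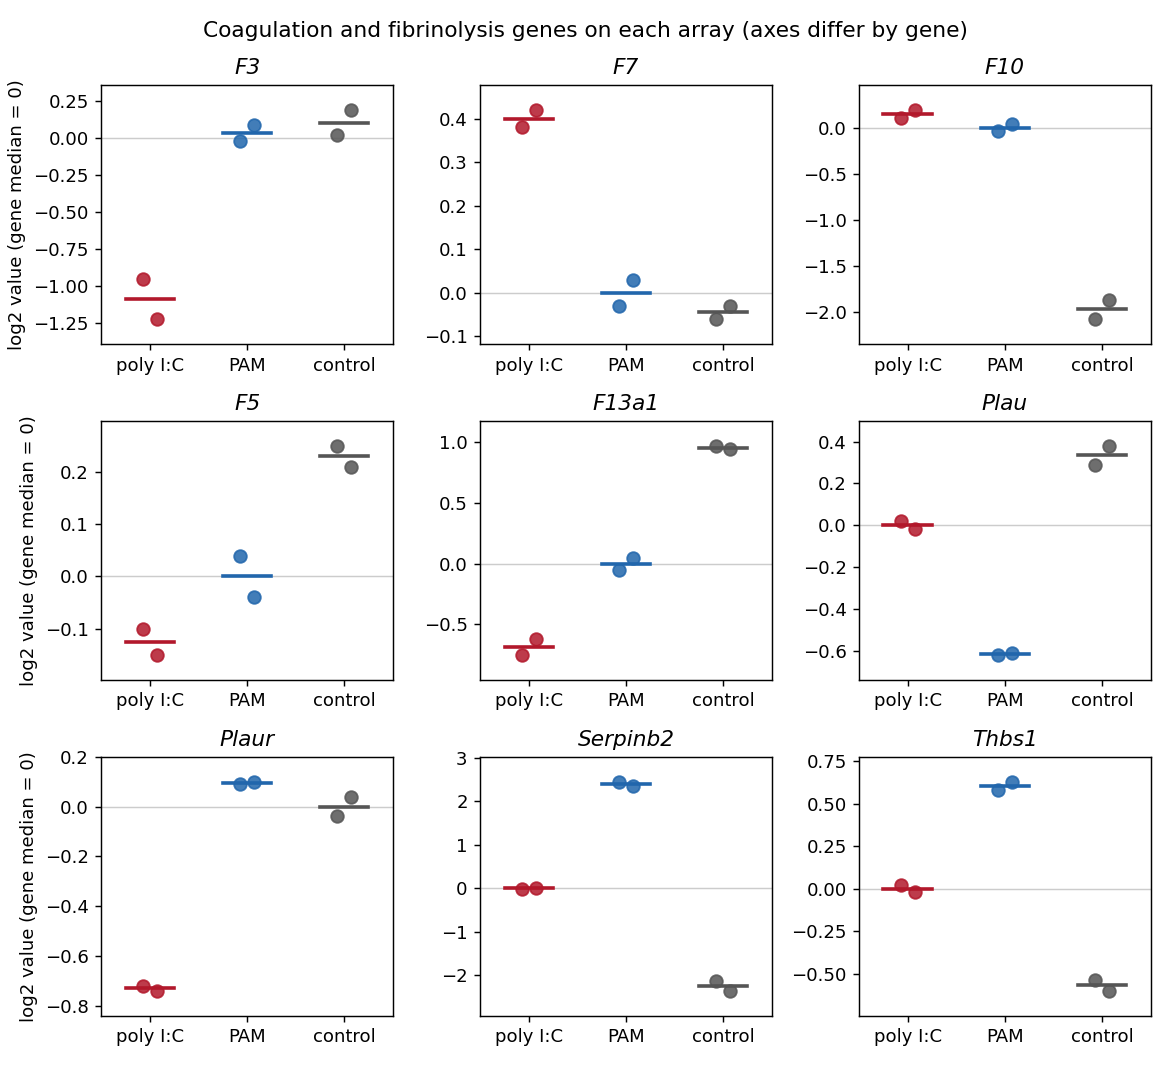
Each panel shows 1 gene on the 6 arrays, as log2 values with the gene's median over the arrays at 0; points are arrays, bars are group means, and the vertical axes differ between genes. F3 and Plaur have low poly I:C arrays beside PAM and control arrays that lie close together, F10 has low control arrays, and Serpinb2, Thbs1, F13a1 and Plau show 3 separate levels.

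F3 encodes tissue factor, the membrane protein that starts the cascade. Its values were -0.95 and -1.22 on the poly I:C arrays, -0.02 and 0.09 on the PAM arrays, and 0.02 and 0.19 on the control arrays. Both poly I:C arrays lay far below the other 4, and PAM and control arrays overlapped. F3 fell by 1.19 ± 0.10 with poly I:C against control, or 2.28-fold (adjusted p = 2.29e-05). The difference of PAM from control was -0.07 ± 0.10, with a 95% interval from -0.30 to 0.16 (adjusted p = 0.741), and poly I:C was below PAM (-1.12 ± 0.10, adjusted p = 3.20e-05). These are whole cultures, in which fewer cells of a type and less RNA per cell cannot be told apart.

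F7 encodes factor VII, the partner of tissue factor. It had values of 0.38 and 0.42 with poly I:C, -0.03 and 0.03 with PAM, and -0.06 and -0.03 in control cells. The poly I:C arrays were the 2 highest, opposite in direction to F3. F7 rose 1.36-fold with poly I:C (0.44 ± 0.06, adjusted p = 6.55e-04). With PAM it differed from control by 0.04 ± 0.06 (interval -0.10 to 0.19, adjusted p = 0.749), and the poly I:C arrays exceeded the PAM arrays by 0.40 ± 0.06 (adjusted p = 0.0012).

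F10 encodes factor X, the protease at which the starting reactions of the cascade meet. It lies next to F7 on chromosome 8, with 0 annotated genes between them in GRCm38.p6. Its values were 0.10 and 0.19 with poly I:C, -0.04 and 0.04 with PAM, and -2.07 and -1.86 in control cells. All 4 treated arrays lay within a narrow range, far above both controls. F10 rose 4.31-fold with poly I:C (2.11 ± 0.08, adjusted p = 1.55e-07) and 3.91-fold with PAM (1.97 ± 0.08, adjusted p = 3.31e-07), the 220th and the 176th largest increase among all genes. The difference between the ligands was 0.14 ± 0.08 with an interval from -0.05 to 0.34, and did not pass (adjusted p = 0.284). The neighbouring F7 thus passed between the ligands where F10 did not; whether the 2 genes differ in this was not tested.

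F5 encodes factor V, the cofactor of factor Xa. Its values were -0.10 and -0.15 with poly I:C, 0.04 and -0.04 with PAM, and 0.25 and 0.21 in control cells. Control arrays were highest, and the changes were small. F5 fell 1.28-fold with poly I:C (-0.35 ± 0.07, adjusted p = 0.00304) and 1.17-fold with PAM (-0.23 ± 0.07, adjusted p = 0.0337). The PAM call was also lost after quantile normalization (-0.20, adjusted p = 0.0755). Both control arrays lay above both PAM arrays, so leaving out 1 array could not reverse the direction. Poly I:C differed from PAM by -0.12 ± 0.07 (interval -0.28 to 0.03, adjusted p = 0.232).

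F13a1 encodes the catalytic A subunit of factor XIII, the transglutaminase that cross-links fibrin, and is also used as a marker of some tissue macrophages. It had values of -0.75 and -0.62 with poly I:C, -0.05 and 0.05 with PAM, and 0.97 and 0.94 in control cells. The 3 groups formed 3 levels without overlap, control highest and poly I:C lowest. The gene fell by 1.64 ± 0.07 with poly I:C, or 3.12-fold (adjusted p = 2.88e-07), which was the 111th largest decrease of all genes. With PAM it fell by 0.96 ± 0.07, or 1.94-fold (adjusted p = 1.17e-05). Poly I:C was lower than PAM by 1.61-fold (-0.68 ± 0.07, adjusted p = 8.80e-05).

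Plau encodes urokinase, the protease that activates plasminogen at the cell surface. Its values were 0.02 and -0.02 with poly I:C, -0.62 and -0.61 with PAM, and 0.29 and 0.38 in control cells. Again the 3 groups were separate, but here the PAM arrays were lowest. Plau fell by 0.34 ± 0.07 with poly I:C, or 1.26-fold (adjusted p = 0.00393). It fell by 0.95 ± 0.07 with PAM, or 1.93-fold (adjusted p = 7.08e-06). Poly I:C arrays were 1.53-fold above PAM arrays (0.61 ± 0.07, adjusted p = 1.02e-04).

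Plaur encodes the urokinase receptor, a protein held to the membrane by a lipid anchor. The values were -0.72 and -0.74 with poly I:C, 0.09 and 0.10 with PAM, and -0.04 and 0.04 in control cells. As for F3, the poly I:C arrays alone stood low; the PAM arrays lay just above both controls. Plaur fell by 0.73 ± 0.07 with poly I:C, or 1.66-fold (adjusted p = 2.97e-05), while the difference with PAM was 0.10 ± 0.07 (interval -0.05 to 0.24, adjusted p = 0.381). Poly I:C was below PAM by 1.78-fold (-0.83 ± 0.07, adjusted p = 1.27e-05). The protease and its receptor therefore had different lowest groups, PAM for Plau and poly I:C for Plaur, each past the threshold against the other ligand.

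Serpinb2 encodes plasminogen activator inhibitor 2, much of which stays inside the cell. It had values of -0.01 and 0.01 with poly I:C, 2.45 and 2.36 with PAM, and -2.12 and -2.35 in control cells. The groups stood at 3 widely spaced levels, in the reverse order to Plau. Serpinb2 rose 24.9-fold with PAM (4.64 ± 0.08, adjusted p = 3.07e-09), the 24th largest increase of all genes, and 4.71-fold with poly I:C (2.24 ± 0.08, adjusted p = 1.03e-07), the 198th largest. Poly I:C was 5.3-fold below PAM (-2.41 ± 0.08, adjusted p = 7.51e-08), the 62nd largest difference in that direction.

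Thbs1 encodes thrombospondin 1, a large glycoprotein released by platelets and also made by macrophages, which binds cells through CD36, CD47 and integrins. Its values were 0.02 and -0.02 with poly I:C, 0.58 and 0.63 with PAM, and -0.54 and -0.60 in control cells. The order of the groups was that of Serpinb2 at a smaller scale. Thbs1 rose 1.49-fold with poly I:C (0.57 ± 0.06, adjusted p = 1.37e-04) and 2.26-fold with PAM (1.18 ± 0.06, adjusted p = 1.49e-06), and poly I:C lay below PAM (-0.60 ± 0.06, adjusted p = 9.49e-05).

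**Figure D2:**
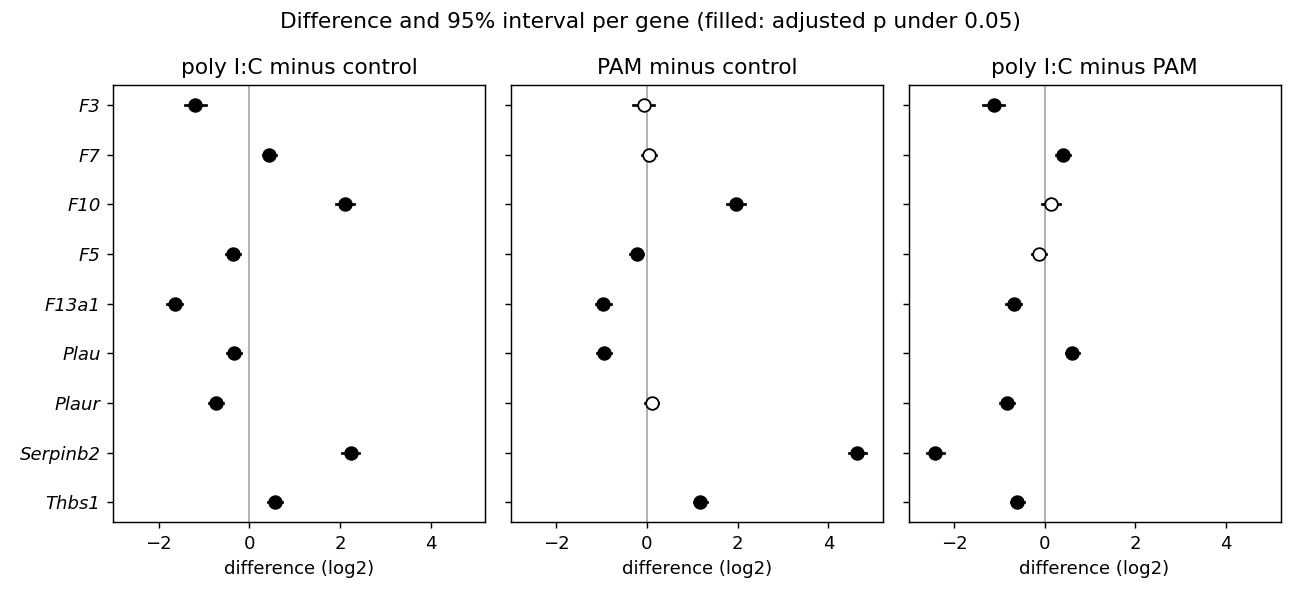
Log2 differences of the 9 genes in the 3 comparisons, with 95% intervals from limma; filled points passed at an adjusted p under 0.05 and open points did not. Serpinb2 with PAM, at 4.64, lies farthest from 0, and the open points are F3, F7 and Plaur with PAM, and F10 and F5 between the ligands.

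Set directly against each other, at 2 and 1 ug/mL, the ligands differed in 7 of the 9 genes: F7 and Plau stood higher under poly I:C, and F3, F13a1, Plaur, Serpinb2 and Thbs1 stood lower. Over all genes 12.9% were higher and 15.8% lower in this comparison, 28.7% in all. The median size of the difference was 0.61 for the 9 genes and 0.11 over all genes.

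The rest of the system was followed through 58 other genes in 7 lists by role, of which 52 had a probe with no other symbol; the rest were not analysed here. With poly I:C 10 of the 52 were higher and 17 lower, and with PAM 9 were higher and 12 lower, so that 51.9% and 40.4% passed, against the 30.4% and 25% of all genes. Without poly I:C replicate 2 the higher genes with poly I:C numbered 6. Their median differences were 0.02 with poly I:C and -0.04 with PAM, against 0.01 and 0.00 over all genes.

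Among 11 anticoagulant genes, 3 rose and 3 fell with poly I:C, and 4 rose and 2 fell with PAM. Procr, the endothelial protein C receptor, rose by 1.13 ± 0.08 with poly I:C and by 2.48 ± 0.08 with PAM (5.57-fold, adjusted p = 4.35e-08). Thbd, which encodes thrombomodulin, the thrombin receptor that starts protein C activation, fell with both ligands (-1.35 ± 0.11 with poly I:C, -1.95 ± 0.11 with PAM). Pros1, the protein S cofactor gene, fell by 2.50 ± 0.07 with poly I:C (5.65-fold, adjusted p = 1.48e-08) and also fell with PAM (-1.44 ± 0.07). Serping1, the C1 inhibitor that also blocks contact factors, rose by 1.87 ± 0.16 with poly I:C and by 1.55 ± 0.16 with PAM. Tfpi, the inhibitor of the tissue factor and factor VIIa complex, went in opposite directions: it fell by 0.77 ± 0.08 with poly I:C (adjusted p = 9.89e-05), where F3 also fell, and rose by 0.55 ± 0.08 with PAM (adjusted p = 0.00103), and was 2.49-fold lower under poly I:C than under PAM (adjusted p = 2.81e-06).

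Of 7 contact and intrinsic factor genes 2 rose and 1 fell with poly I:C, F9 (0.46 ± 0.08) and F8 (0.34 ± 0.07; adjusted p = 0.0566 without poly I:C replicate 2) being higher, and only Vwf, the von Willebrand factor gene, passed with PAM (-1.07 ± 0.06, and -0.54 ± 0.06 with poly I:C). Prothrombin, the fibrinogen chains, the factor XIII B subunit gene F13b and receptors of the thrombin receptor family made a list of 8 in which F2r, a thrombin receptor, was the only gene to pass in either comparison by limma. Its differences were -0.33 ± 0.08 with poly I:C and -0.65 ± 0.08 with PAM. The poly I:C call was lost without either poly I:C array (adjusted p up to 0.0973).

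Genes that act beside Plau on plasminogen split as well. With poly I:C 2 of 8 were higher and 2 lower, and with PAM 1 was higher and 4 lower. The 2 higher with poly I:C were S100a10 and Hpn, and neither call was kept in every fit without 1 array. Hpn rose by 0.25 ± 0.07, with differences from 0.20 to 0.29 in those fits. Lrp1, the endocytic receptor that clears urokinase bound to its inhibitors, fell by 1.28 ± 0.07 with poly I:C (2.42-fold, adjusted p = 1.06e-06) and also fell with PAM (-0.81 ± 0.07). Plat, the tissue-type plasminogen activator, rose by 0.46 ± 0.07 with PAM, where Plau fell. Anxa2, part of a plasminogen-binding complex, fell by 0.42 ± 0.06 with poly I:C and also fell with PAM (-0.50 ± 0.06). Its partner S100a10 rose by 0.25 ± 0.07 with poly I:C and did not pass with PAM. The S100a10 call was lost in 3 of the 6 fits without 1 array, those without control replicate 1, poly I:C replicate 1 or poly I:C replicate 2 (adjusted p up to 0.109). Among the 3 other measured inhibitor genes, Serpinb8 rose by 0.49 ± 0.07 with poly I:C and by 0.36 ± 0.07 with PAM, while Serpinf2 and A2m did not pass.

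Genes for the vitamin K cycle and the secretion of clotting factors were lower in 7 of 8 cases with poly I:C, while the other one, Mcfd2, did not pass (0.19 ± 0.07, adjusted p = 0.0809); with PAM 3 were higher and 2 lower. Vkorc1, the vitamin K reductase, fell by 0.90 ± 0.09 with poly I:C (adjusted p = 5.38e-05). Gas6, a vitamin K-dependent ligand of TAM receptors, fell with both (-1.85 ± 0.11 with poly I:C, -1.73 ± 0.11 with PAM). Lman1, a cargo receptor for factors V and VIII, and its cofactor Mcfd2 rose with PAM by 0.68 ± 0.07 and 0.62 ± 0.07, and Lman1 was 2-fold lower under poly I:C than under PAM (adjusted p = 4.43e-06). Of 7 genes for other thrombospondins and thrombospondin receptors, 2 rose and 3 fell with poly I:C and 2 fell with PAM. Cd36 fell with poly I:C (-0.79 ± 0.07) and PAM (-0.65 ± 0.07), and so did the integrin gene Itgb3 (-1.73 ± 0.10 with poly I:C, -1.39 ± 0.10 with PAM), while Cd47 rose with poly I:C by 0.89 ± 0.06.

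**Figure D3:**
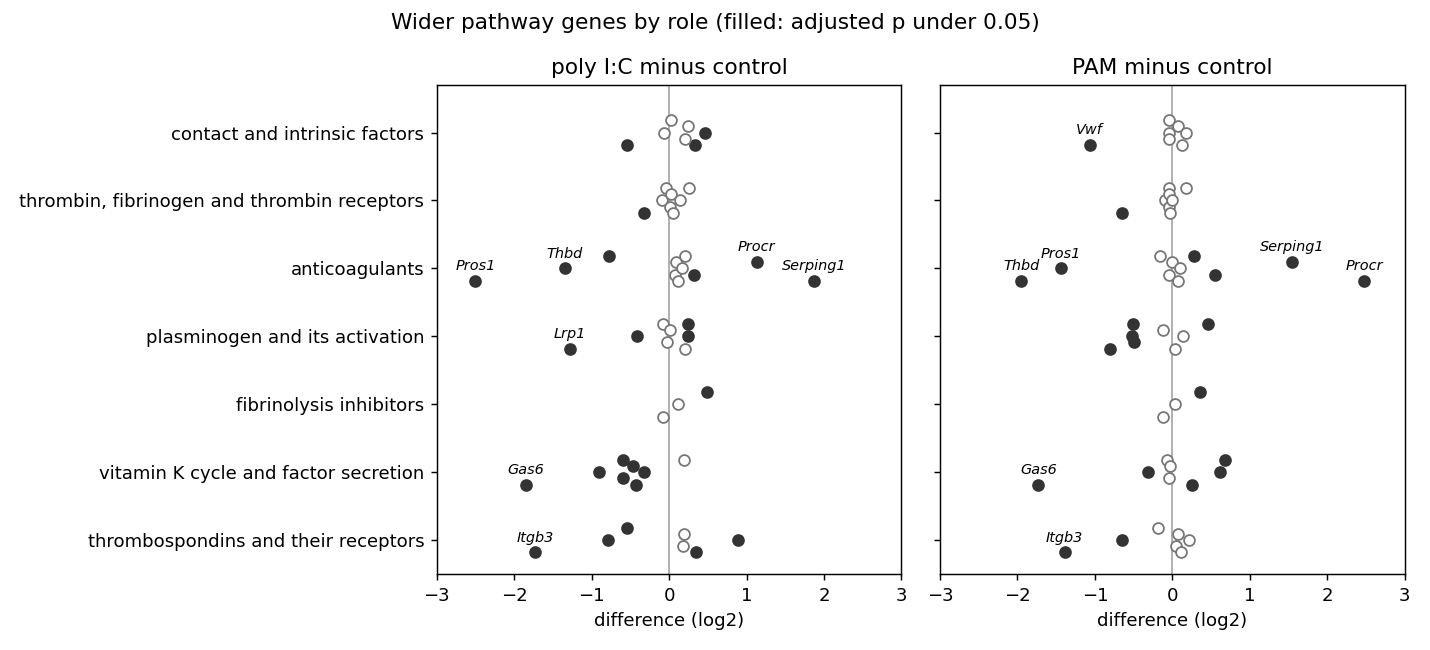
Log2 differences from control of 52 genes in 7 lists by role, with poly I:C (left) and PAM (right); filled points passed at an adjusted p under 0.05, and genes with a difference of at least 1 in size are named. Most points of the thrombin and fibrinogen list lie near 0, and 7 of 8 vitamin K cycle and secretion genes lie below 0 with poly I:C.

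Markers of other cells were read beside these genes. Over all genes 30.4% passed with poly I:C and 25% with PAM. In the same order, 33.3% and 33.3% of mesothelial and fibroblast markers passed, and 30% and 20% of endothelial markers. For hepatocyte markers it was 33.3% and 11.1%, for neutrophil markers 18.2% and 27.3%, and for B cell markers 33.3% and 50%. Eosinophil markers stood at 20% with each ligand, and macrophage markers at 72.7% with each. Of 12 mesothelial and fibroblast markers 4 fell with poly I:C, and 3 fell and 1 rose with PAM. The mean of that list lay between -0.10 and -0.07 on poly I:C arrays and at 0.00 on PAM arrays, against -0.03 to 0.21 on control arrays. Beside Plau, at -0.34 with poly I:C and -0.95 with PAM, the mesothelial genes differed among themselves. Those that fell with both ligands were Lrrn4 (-0.36 with poly I:C, -0.98 with PAM) and Upk3b (-0.40 with poly I:C, -0.45 with PAM). Krt8 differed by 0.13 with poly I:C, which did not pass, and fell with PAM (-0.25), and Msln, Krt18, Krt19 and Wt1 passed with neither ligand, their differences lying between -0.30 and 0.11. Of the fibroblast genes Col1a1 (-0.36) and Col3a1 (-0.69) fell with poly I:C and did not pass with PAM (0.19 and 0.02). Dcn rose by 0.95 with PAM and did not pass with poly I:C (-0.06). Col1a2 (-0.03 with poly I:C, 0.29 with PAM) and Pdgfra (-0.25 with each) passed with neither ligand. The 5 probes of the mesothelial and fibroblast list at 8 or above on all arrays were all of fibroblast genes (Col1a1, Col1a2, Col3a1, Dcn and Pdgfra). No mesothelial probe was in that class. Of 8 platelet and megakaryocyte markers none passed with poly I:C by limma, 1 having an unadjusted p under 0.05, and 2 rose with PAM, the chemokine gene Pf4 (2.60 ± 0.06) and Ppbp (0.30), beside the rises of Thbs1 and Serpinb2; Gp9, Itga2b and the other 4 did not pass. The mean of that list was -0.02 to 0.04 with poly I:C and 0.32 to 0.36 with PAM, against -0.08 to 0.07 in control cells. Among 10 endothelial markers Kdr rose by 3.06 with poly I:C and fell by 0.88 with PAM, Cdh5 rose by 0.37 with poly I:C, and Vwf fell with both, beside the changes of Procr and Thbd, which endothelium also expresses. Of 9 hepatocyte markers 2 rose with poly I:C, Apoa1 (0.33) and Ahsg (0.24), and Trf fell with both ligands, beside the rise of F7. Of 11 neutrophil markers 1 rose and 1 fell with poly I:C, and 2 rose and 1 fell with PAM; of 6 B cell markers 2 rose with poly I:C and 3 with PAM; of 5 eosinophil markers 1 fell with each ligand. None of 6 T and NK cell markers passed by limma (1 with poly I:C and 0 with PAM at an unadjusted p under 0.05), and none of 7 mast cell markers did (1 with each ligand at an unadjusted p under 0.05). Of 11 macrophage markers 4 rose and 4 fell with each ligand. The part of other cells in these results was not tested.

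For each of the 9 genes the 3 genes nearest in profile were found by the root mean square difference of log2 values over the 6 arrays. Nearest to F3 was Dusp6, a phosphatase gene (0.04), then Retreg1 (0.06) and Tpgs2 (0.07). Plaur lay nearest to Galnt1 (0.03), Lrba (0.04) and Spred2 (0.04), and F13a1 to Etv5 (0.07), Cnrip1 (0.10) and Lima1 (0.10). Serpinb2 had Tnf, the tumour necrosis factor gene, as its nearest gene (0.18), followed at a distance by Clmp (0.36) and Pilrb1 (0.37). Tnf differed from control by 2.20 with poly I:C and 4.43 with PAM. Nearest to Thbs1 were Sgms2 (0.03), Pla2g4a (0.04) and Slco4a1 (0.06), and nearest to F10 Slc31a2 (0.09), Flrt3 (0.19) and Asns (0.20). Plau came nearest to Dagla (0.03) and to Lrrn4 (0.04), followed by Snx30 (0.05). For F5 the nearest were Cavin1 (0.02), Hsd17b10 (0.02) and Snap23 (0.03), and for F7 Wdr43 (0.02), Slc9a3r1 (0.03) and Tbc1d10b (0.03).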

How the data were processed

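Biotinylated cRNA was made from total RNA by an Affymetrix protocol, per the labels' protocols. The authors deposited 1 table of log2 values for 28815 probes on 6 arrays. The log base, taken as 2, and the authors' summarization, background correction and normalization are not stated in the labels or the table. Each probe's median was already subtracted (the largest remaining was 5e-07), and array medians lay between -0.0049 and 0.0072.

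Probes with 1 symbol (21780) were averaged into 19935 genes; 1605 with several symbols and 5430 with none were left out. One mean per group was fitted over all 6 arrays with lmFit and eBayes without trend (limma 3.58.1, R 4.3.3; 3 residual and 5.68 prior degrees of freedom). The fit was tested on simulated data. Tables and figures used Python 3.11.15, pandas 2.3.3 and matplotlib 3.10.9. The number of arrays limits the precision (median SE 0.075).

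The 9 genes, the lists and the markers were chosen with earlier results of these data known. From the wider lists, genes were named by size of difference among those that passed, up to 2 per list, comparison and direction. St14, Vkorc1l1, Thbs4, Plgrkt, Itgav and Serpind1 also met this rule and were not named above. Serpinf2, A2m and the marker genes were named after their values were seen. The class at 8 or above comes from single-precision number steps and mislabels a dim probe by chance at about the olfactory receptor share. Alternatives were array centring, quantile normalization, a variance trend, a robust prior, 4 arrays, the replicate block, leaving out arrays, other probe rules and a fold minimum; a filter on that class was added after seeing the data.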

Additional observations from a re-analysis of the deposited data

How the results depend on the processing

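Several alternatives could change little for the 9 genes. Each gene had 1 probe, so the other probe rules refitted the same values and could alter only the spread and adjustment. Array medians were already near 0, and leaving out an array of the group not compared left the difference itself unchanged. Over 14 alternatives other than a fold minimum, 370 of 378 gene and comparison results of the 9 genes kept their direction and their side of the threshold. The 8 that did not were all F5 with PAM, which kept its direction with adjusted p from 0.0564 (only the 4 arrays compared) to 0.219 (without PAM replicate 2). Leaving out 1 array gave, in the 6 fits, 2 genes lower with PAM, against 3 with all arrays, 6 to 12 wider pathway genes higher with poly I:C, and 1828 to 2839 of all genes lower with PAM. The lowest of these came without poly I:C replicate 2 (6 genes) and without PAM replicate 1 (1828 genes); the cause was not tested beyond the loss of an array. A minimum of 2-fold left, with poly I:C, 2 of the 9 genes higher and 2 lower, 2 and 5 wider genes, and 552 and 408 of all genes. With PAM it left 0 of the 9 genes lower, 2 and 5 wider genes, and 452 and 386 of all genes. Between the ligands it left 0 of the 9 genes higher and 2 lower, 0 and 4 wider genes, and 517 and 474 of all genes. The deviations of same-numbered samples correlated at -0.073 for control and poly I:C, 0.155 for control and PAM, and -0.01 for poly I:C and PAM. With 2 arrays in a group, these values cannot show whether same-numbered samples belonged together. With the replicate block, poly I:C still had 4 of the 9 genes higher and 5 lower, PAM had 3 and 3, and the comparison of the ligands had 2 and 5. Added after seeing the data was a fit of the 5829 genes classed at 8 or above on all arrays. The class tends to leave out genes low in any 1 group, and it left out F3, F5 and F13a1. All 18 results of the 6 genes left kept direction and side, and counts fell because fewer genes were tested: 2 of the 9 genes lower with poly I:C, 1 with PAM and 3 between the ligands, with wider genes at 6 higher and 10 lower, 6 lower, and 4 higher in the same order, and 1538 and 2360 of all genes with poly I:C. The planned filter on signal over background was not run, since the values hold only this coarse class. The scanner files' background correction and slides were not analysed here.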
